A study of Bombyx mori with 12 samples.

Results

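The Bm1 family, as the name is used here, is a set of transposon entries of the silkworm Bombyx mori listed as short interspersed elements (SINEs). It was followed in poly-A RNA and in small RNA bound to the PIWI protein Siwi. Its members were all entries of class SINE with Bm1 in their name, which gave 4 of 1716 transposon entries in each of 2 tables: Bm1, Bm1-450bp, Bm1modoki and ChoBm1. The tables list Bm1 under a superfamily of its own and the other 3 under a superfamily called SBTE, which holds 9 of the 20 SINE entries. The cells were BmN4, an established ovary-derived silkworm line with a working piRNA pathway, kept at 26 °C. Every group received siRNA (500 pmol, given again in a further transfection) and was harvested after 10 days in all. The siRNA was directed at luciferase in the control (LucKD), at Siwi (SiwiKD), at its partner PIWI protein Ago3 (Ago3KD) or at Maelstrom (MaelKD). Poly-A RNA was sequenced from LucKD, SiwiKD and MaelKD cells, and small RNA of 22 to 35 nt from Flag-Siwi immunoprecipitates of LucKD, Ago3KD and MaelKD cells, with 2 libraries in each group. Whether the 2 libraries of a group stem from separate cultures is not stated in the labels; the p-values then cover no more than the library-to-library spread, which may be technical.

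SINEs are non-coding retrotransposons. They are transcribed by RNA polymerase III from a promoter inside the element and have no enzymes of their own, so they are copied by the reverse transcriptase and endonuclease of long interspersed elements (LINEs). Bm1 is the classical, highly repeated SINE of the silkworm genome, and its copies lie scattered among and inside genes. PIWI proteins carry piRNAs, small RNAs that pair with transposon transcripts. Siwi slices the transcripts that its piRNAs match, Ago3 acts on the opposite strand, and the exchange of cleaved pieces between them is called the ping-pong cycle. Maelstrom is a conserved factor of this pathway. Where an RNA level is lower, fewer expressing cells and less RNA per cell cannot be told apart.

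Library totals, as the step size of the values gave them, ran from 32487082 to 45155711 reads in RNA and from 1763511 to 4806161 reads in small RNA. Small RNA values are in RPM, which scales reads to the library total, and RNA values are in RPKM, which also divides by the length of the entry. The shortest entry length that turned all RPKM values of an entry into whole reads was 354 bases for Bm1, 444 for Bm1-450bp, 1178 for Bm1modoki and 5412 for ChoBm1. The length of Bm1-450bp thus lay close to the one in its name, while ChoBm1 was far longer than the short repeat that the class SINE describes. Whether ChoBm1 or Bm1modoki holds more than a SINE was not tested. Lengths recovered for other SBTE entries ran from 1088 (Ins11) to 5851 bases (Yaocho). All 4 entries passed the filter on low values (mean of at least 1) in both tables, as did 10 and 16 of the 16 other SINE entries. Bm1 rested on 13273 to 26710 RNA reads per library but on only 81 to 308 small RNA reads, and ChoBm1 on 2031 to 8313 RNA reads and 769 to 2939 small RNA reads. Poly-A reads from a free element and from copies inside longer transcripts were not separated, and the strand of the reads was not analysed here. The knockdown targets are not among the transposon entries and were not analysed here.

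In control cells the 4 entries stood in different orders in RNA and in small RNA. Per length, Bm1 held the highest RNA level of all 1716 entries in each of the 6 RNA libraries, at 1708 and 1198 RPKM in the 2 control libraries. Bm1-450bp followed with 88.8 and 74.7 RPKM, ChoBm1 with 9.76 and 11.4 RPKM and Bm1modoki with 7.05 and 6.41 RPKM, and no neighbours in this order overlapped. In Siwi-bound small RNA per length, Bm1modoki came highest with 288 and 227 RPM per kb and Bm1-450bp next with 160 and 194 RPM per kb. Bm1 had 141 and 130 RPM per kb and ChoBm1 113 and 112 RPM per kb, again without overlap between neighbours. The small RNA levels of the family thus lay within a far narrower range than its RNA levels.

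Set against the other SINEs, Bm1 carried the least Siwi-bound small RNA for its RNA. Of the 19 SINE entries with a recovered length, Bm1 ranked first for RNA per length in control cells and 11th for small RNA per length, and its ratio of small RNA (RPM per kb) to RNA (RPKM) was the lowest, at 0.0932. Bm1-450bp had a ratio of 2.17 (rank 16 of 19), ChoBm1 of 10.6 (rank 11) and Bm1modoki of 38.3 (rank 5). After Mael knockdown the ratio of Bm1 was 0.156 and still the lowest, that of Bm1-450bp was 2.47, that of Bm1modoki 33.4 and that of ChoBm1 5.15. These ratios join group means of separate libraries in different units and are given as a description, with no test.

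**Figure D1:**
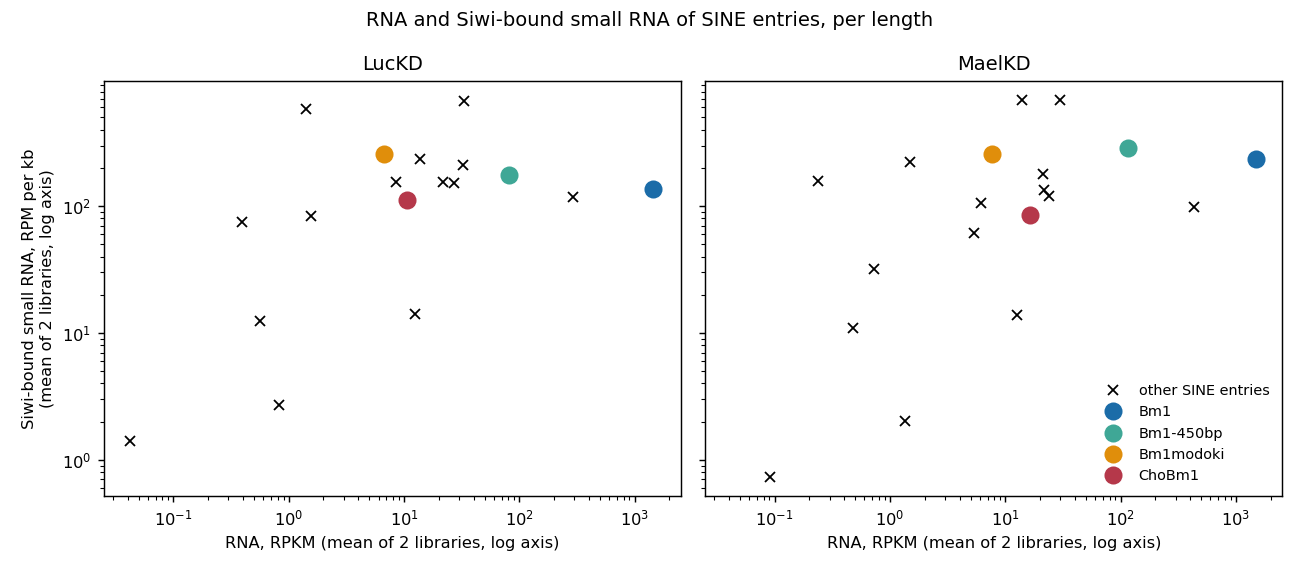
RNA level (RPKM, log axis) against Siwi-bound small RNA level (RPM per kb, log axis) of SINE entries in LucKD and MaelKD cells, each point the mean of 2 libraries; coloured points are the Bm1 family and crosses the other SINE entries, without an entry listed at 0 RNA in LucKD. Bm1 lies farthest to the right in both panels, at 1453 RPKM in LucKD, while its small RNA level of 135 RPM per kb lies among those of the other entries.

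With siRNA against Siwi, RNA of 3 of the 4 entries rose: ChoBm1 3.65-fold, Bm1modoki 2.08-fold and Bm1-450bp 1.42-fold. Bm1, the most abundant of them, did not pass the test. Of all 490 tested entries 24.3% were called higher and 3.06% lower (adjusted p below 0.05 in limma, Benjamini-Hochberg). The groups did not overlap for 4 of the 4 members and for 60.8% of all tested entries. The median log2 change was 0.72 in the family and 0.15 in all tested entries.

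ChoBm1 stood at 9.76 and 11.4 RPKM in the control libraries and at 39.2 and 37.9 RPKM after Siwi knockdown. Both knockdown libraries lay far above both controls. The log2 change on the log2(RPKM + 1) scale, used for all changes here, was 1.78 ± 0.19 (standard error), with an adjusted p of 4.19e-09, the 21st highest of the 490 changes. Bm1modoki went from 7.05 and 6.41 RPKM to 12.2 and 15.8 RPKM, without overlap between the groups (log2 change 0.94 ± 0.20, adjusted p = 0.000552). Bm1-450bp was at 88.8 and 74.7 RPKM in the controls and at 123 and 109 RPKM after Siwi knockdown, also without overlap. Its change of 0.50 ± 0.19 was close to the threshold (adjusted p = 0.0445). That call was lost with trimmed-mean scaling (log2 change 0.29, adjusted p = 0.267), without LucKD replicate 2 (0.38) or SiwiKD replicate 1 (0.42), and with a pseudocount of 10, no filter, no trend or only the 4 libraries compared (adjusted p = 0.0551 to 0.0991).

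Bm1 itself was at 1154 and 1091 RPKM after Siwi knockdown, below both control libraries (1708 and 1198 RPKM), which differed from each other by more than the knockdown libraries did. The log2 change was -0.35 ± 0.24, with a 95% interval of -0.84 to 0.14 and an adjusted p of 0.313. Without LucKD replicate 2, the control library with less Bm1 RNA, the change was -0.61 and passed the test (adjusted p = 0.0459). The interval of ChoBm1, 1.40 to 2.16, lay wholly above that of Bm1.

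**Figure D2:**
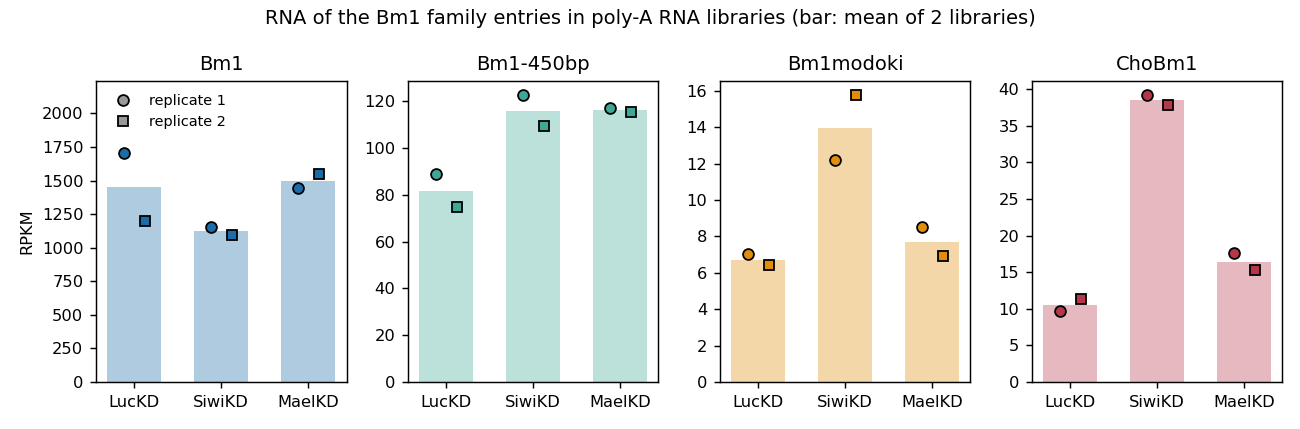
RNA level in RPKM (vertical axes from 0, a separate scale for each entry) of the 4 Bm1 family entries in LucKD, SiwiKD and MaelKD cells; circles and squares are the 2 libraries of a group and bars their mean. ChoBm1 and Bm1modoki stand highest in both SiwiKD libraries, Bm1-450bp is above both controls in all 4 knockdown libraries, and the 2 control values of Bm1, 1708 and 1198 RPKM, lie on either side of both MaelKD values and above both SiwiKD values.

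After Mael knockdown ChoBm1 was the 1 member of 4 whose RNA passed the test, with a rise of 1.56-fold. This comparison used the same control libraries as that of Siwi knockdown. Of all 490 entries 8.37% were called higher and 2.65% lower. Groups did not overlap for 2 of the 4 members and for 48.6% of all entries. ChoBm1 reached 17.6 and 15.3 RPKM, both above the controls (log2 change 0.59 ± 0.19, adjusted p = 0.0334). The call did not hold without any 1 of the 4 libraries (log2 changes 0.49 to 0.70, adjusted p = 0.0558 to 0.298), nor with a pseudocount of 10, no filter or no trend (adjusted p = 0.0613 to 0.104). Bm1-450bp stood at 117 and 116 RPKM, above both controls and at the level it had after Siwi knockdown. Its change of 0.51 ± 0.19 missed the threshold (adjusted p = 0.0813) and passed it with only the 4 libraries compared (adjusted p = 0.0482), with a mean of at least 10 (0.0496) and with the replicate number as a block (0.0245). Bm1modoki was at 8.52 and 6.92 RPKM, overlapping the controls, with a 95% interval of the log2 change of -0.24 to 0.58. Bm1 was at 1445 and 1545 RPKM, between its 2 control values (log2 change 0.0633 ± 0.24, 95% interval -0.43 to 0.55).

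Set directly against each other, Mael knockdown left less RNA of ChoBm1 and Bm1modoki than Siwi knockdown did. Of all 490 entries 18.8% were lower after Mael knockdown and 1.63% higher. Groups did not overlap for 3 of the 4 members and for 57.3% of all entries. ChoBm1 had 16.5 ± 1.58 RPKM with Mael knockdown and 38.5 ± 0.932 RPKM with Siwi knockdown (SD, n = 2), a log2 difference of -1.18 ± 0.19 (adjusted p = 2.03e-05). Bm1modoki was at 7.72 ± 1.13 and 14.0 ± 2.53 RPKM (-0.78 ± 0.20, adjusted p = 0.00599). The Bm1modoki call was lost with trimmed-mean scaling (-0.58, adjusted p = 0.0697) and without SiwiKD replicate 2 (-0.60) or MaelKD replicate 2 (-0.64), and with no filter (adjusted p = 0.0785). For Bm1-450bp the knockdowns gave 116 ± 0.998 and 116 ± 9.22 RPKM, with a 95% interval of the log2 difference of -0.37 to 0.39. Bm1 had 1495 ± 70.5 RPKM with Mael knockdown and 1123 ± 44.6 RPKM with Siwi knockdown, without overlap, and the difference of 0.41 ± 0.24 did not pass (adjusted p = 0.293). With the replicate block it did (adjusted p = 0.0471).

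The make-up of the family differed between the groups, a measure that no scaling of whole libraries can move. Bm1 supplied 85.7% and 80.6% of the family's RNA reads in control cells, 59.3% and 58.7% after Siwi knockdown and 76.5% and 79.3% after Mael knockdown. ChoBm1 supplied 7.49% and 11.7% in controls, 30.8% and 31.1% in the SiwiKD libraries and 14.2% and 12.04% in the MaelKD libraries. For each Bm1 read there were 0.0874 and 0.145 ChoBm1 reads in controls, 0.519 and 0.531 after Siwi knockdown and 0.186 and 0.152 after Mael knockdown. Neither knockdown overlapped the controls in this ratio; with 2 libraries a side, 0.333 is the smallest two-sided p that an exact permutation test can give. The family as a whole held 0.0616% ± 0.0126 of the control RNA libraries, 0.0674% ± 0.00219 of those with Siwi knockdown and 0.0679% ± 0.00146 of those with Mael knockdown (SD, n = 2), all within the range of the controls.

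Bm1 and Bm1-450bp, the members with the smallest RNA changes after Siwi knockdown, had the largest rises of the 4 in small RNA bound to Siwi. With Ago3 knockdown small RNA of Bm1 rose 2.48-fold, that of Bm1-450bp 2.35-fold and that of Bm1modoki 1.36-fold, and ChoBm1 did not pass the test. Of all 1004 tested entries 16.8% were called higher and 40.6% lower. Groups did not overlap for 3 of the 4 members and for 78.8% of all tested entries. The family's median log2 change was 0.84 and that of all tested entries -0.28. No RNA libraries of Ago3KD cells and no small RNA libraries of SiwiKD cells were analysed here, so these values come from different knockdowns.

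Bm1 small RNA was at 49.9 and 45.9 RPM in control cells and at 118 and 119 RPM after Ago3 knockdown. Both knockdown libraries exceeded both controls by far more than libraries of a group differed (log2 change 1.29 ± 0.14, adjusted p = 1.02e-10). Bm1-450bp went from 71.0 and 86.2 RPM to 181 and 189 RPM, likewise without overlap (1.23 ± 0.12, adjusted p = 1.74e-11). These were the 51st and 61st highest of the 1004 changes. Both calls held when the spread was fitted without a trend, at much larger adjusted p (0.00187 and 0.00259). Bm1modoki went from 339 and 268 RPM to 430 and 397 RPM (0.45 ± 0.10, adjusted p = 0.000171), a call lost when the spread was fitted without a trend over the level (adjusted p = 0.0578). ChoBm1 was at 612 and 606 RPM in the controls and at 746 and 592 RPM after Ago3 knockdown, 1 library above and 1 below them (0.13 ± 0.10, 95% interval -0.0688 to 0.32). Without Ago3KD replicate 2 the ChoBm1 change was 0.29 and passed the test (adjusted p = 0.0324). Trimmed-mean scaling, which sets the median change of all entries at 0.0126 in place of -0.28, moved ChoBm1 to 0.45 (adjusted p = 0.000311) and kept the other 3 calls; the split of all calls was 262 higher and 295 lower, in place of 169 and 408.

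**Figure D3:**
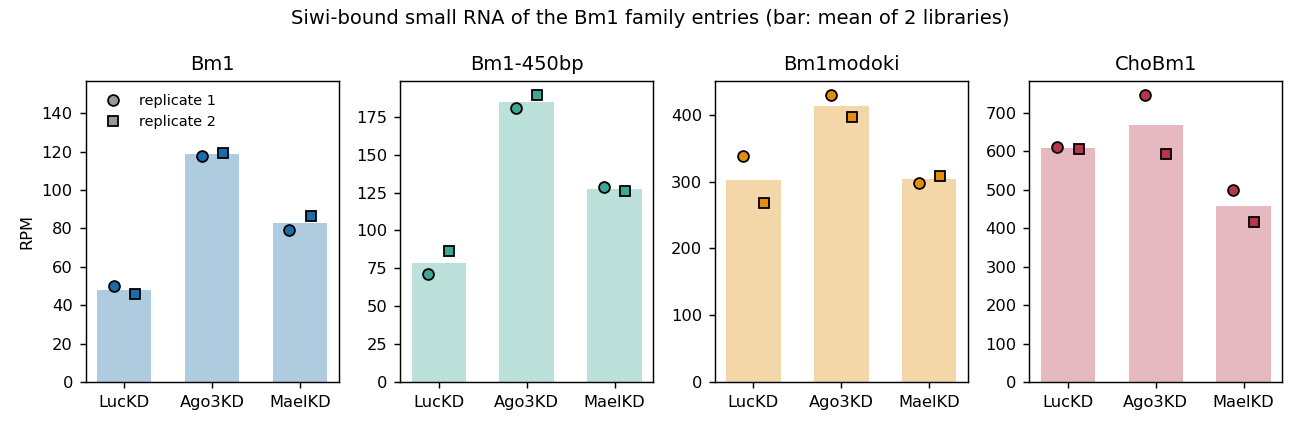
Siwi-bound small RNA in RPM (vertical axes from 0, a separate scale for each entry) of the 4 Bm1 family entries in LucKD, Ago3KD and MaelKD cells; circles and squares are the 2 libraries of a group and bars their mean. Bm1 and Bm1-450bp are lowest in both controls, intermediate in both MaelKD libraries and highest in both Ago3KD libraries, whereas ChoBm1 is lowest in the MaelKD libraries.

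In the values as deposited, members of the family changed in opposite directions in Siwi-bound small RNA after Mael knockdown. The fall, that of ChoBm1, did not hold with trimmed-mean scaling. Bm1 and Bm1-450bp rose 1.72-fold and 1.62-fold, ChoBm1 fell to 0.754 of its control level, and Bm1modoki did not pass the test. These libraries were set against the same controls as those with Ago3 knockdown. Of all 1004 entries 11.8% were higher and 44.4% lower. Groups did not overlap for 3 of the 4 members and for 77.1% of all entries. Bm1 reached 79.0 and 86.3 RPM (log2 change 0.77 ± 0.14, adjusted p = 5.95e-06) and Bm1-450bp 129 and 126 RPM (0.70 ± 0.12, adjusted p = 4.98e-06). Both entries were above both controls in both libraries, and they were the 60th and 76th highest of the 1004 changes. The 2 calls held when the spread was fitted without a trend, at larger adjusted p (0.00621 and 0.0129). Bm1modoki was at 299 and 308 RPM, between its 2 control values (0.0109 ± 0.10, 95% interval -0.19 to 0.21).

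ChoBm1 stood at 501 and 417 RPM after Mael knockdown, below both controls (612 and 606 RPM), with a log2 change of -0.41 ± 0.10 (adjusted p = 0.000362). Its fall was close to the median change of all 1004 entries, -0.44, and the call was lost when the spread was fitted without a trend (adjusted p = 0.0969). Trimmed-mean scaling, which moves that median to 0.0721, turned the ChoBm1 change to 0.17 (adjusted p = 0.158) and the Bm1modoki change to 0.60 (adjusted p = 1.75e-05), and the split of all calls from 118 higher and 446 lower to 261 and 194. The rises of Bm1 and Bm1-450bp were larger under that scaling, at 1.35 and 1.28.

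Against Ago3 knockdown, Mael knockdown left less Siwi-bound small RNA of all 4 entries, to 0.686 to 0.734 of the level with Ago3 knockdown. Of all 1004 entries 31.7% were lower and 20.7% higher, and of the 16 other SINE entries 10 were lower and 2 higher. Groups did not overlap for 4 of the 4 members and for 78.3% of all entries. The log2 differences were -0.52 ± 0.14 for Bm1, -0.53 ± 0.12 for Bm1-450bp, -0.44 ± 0.10 for Bm1modoki and -0.54 ± 0.10 for ChoBm1 (adjusted p = 0.00146, 0.000274, 0.000259 and 8.81e-06), beside a median of -0.34 over all entries. With trimmed-mean scaling the differences were -0.25, -0.27, -0.18 and -0.27, and of the 4 members ChoBm1 alone passed the test (adjusted p = 0.0227). Fitted without a trend, Bm1modoki and ChoBm1 did not pass (adjusted p = 0.0666 and 0.0522).

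**Figure D4:**
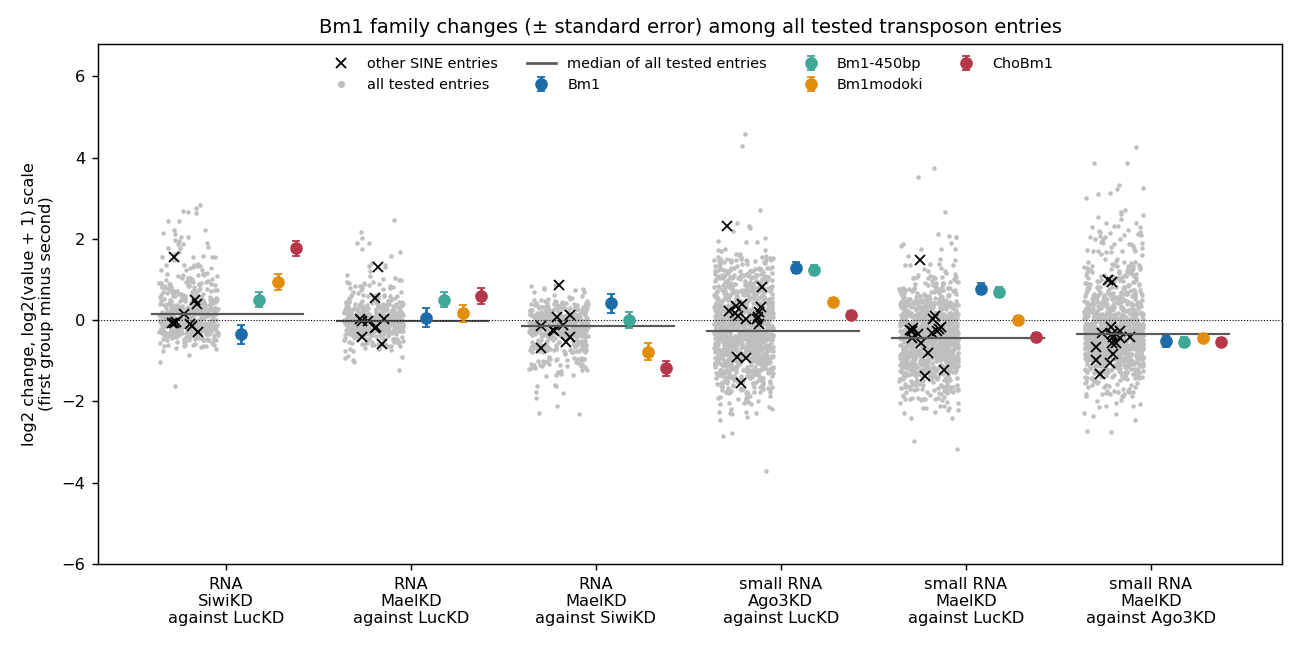
Log2 changes on the log2(value + 1) scale for the 6 comparisons; coloured points with standard errors are the Bm1 family entries, crosses the other tested SINE entries, grey points all tested entries and horizontal lines their median. ChoBm1 is the highest of the 4 in RNA after Siwi knockdown (1.78) and the lowest in small RNA after Ago3 (0.13) and Mael (-0.41) knockdown, where Bm1 is the highest (1.29 and 0.77).

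Within the Siwi-bound reads of the family, ChoBm1 had a smaller share in both knockdowns than in the controls, and Bm1 and Bm1-450bp a larger share. It supplied 57.1% and 60.3% of these reads in control cells, 50.6% and 45.6% after Ago3 knockdown and 49.7% and 44.5% after Mael knockdown. Bm1 went from 4.66% and 4.57% to 8.00% and 9.20% with Ago3 knockdown and to 7.85% and 9.20% with Mael knockdown, and Bm1-450bp from 6.62% and 8.57% to 12.3% and 14.6% and to 12.8% and 13.4%. Bm1modoki stayed near its control shares of 31.6% and 26.6%, at 29.1% to 32.9% in the 4 knockdown libraries. Each Bm1 read was matched by 12.7 ± 0.672 ChoBm1 reads in controls, by 5.65 ± 0.966 with Ago3 knockdown and by 5.59 ± 1.06 with Mael knockdown (SD, n = 2). The family as a whole held 0.104% ± 0.00460 of the control Siwi-bound libraries, 0.139% ± 0.0124 of those with Ago3 knockdown and 0.0972% ± 0.00489 of those with Mael knockdown. Of all Siwi-bound SINE reads it held 21.2% ± 1.301, 32.1% ± 0.332 and 21.7% ± 0.0495 in the same order. For each of these measures 0.333 is the smallest exact two-sided permutation p.

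**Figure D5:**
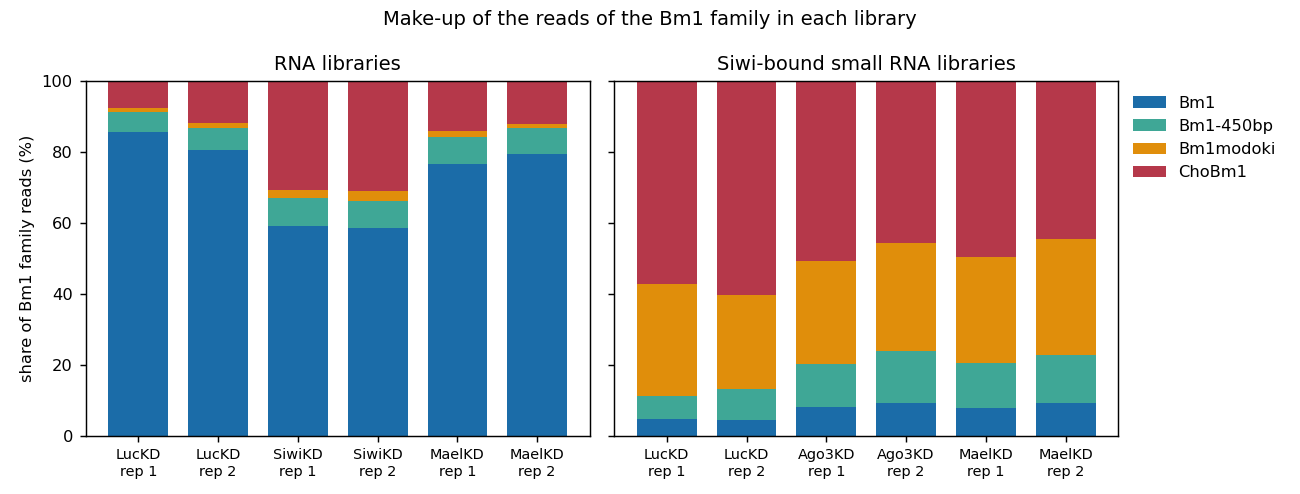
Share of the Bm1 family's reads (%) that each of the 4 entries supplied in each RNA library and each Siwi-bound small RNA library. Bm1 makes up most of the RNA reads, 58.7% to 85.7%, and the smallest part of the small RNA reads, 4.57% to 9.20%; ChoBm1 has its largest RNA shares in both SiwiKD libraries and a smaller small RNA share in all 4 knockdown libraries than in the controls.

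The small RNA order by length shifted with these changes. After Ago3 knockdown Bm1-450bp came highest, at 417 ± 13.6 RPM per kb, and Bm1modoki (351 ± 19.4) and Bm1 (335 ± 2.98) overlapped, with ChoBm1 lowest at 124 ± 20.1 (SD, n = 2). After Mael knockdown the order was Bm1-450bp at 287 ± 4.88, Bm1modoki at 258 ± 5.78, Bm1 at 234 ± 14.5 and ChoBm1 at 84.8 ± 10.9 RPM per kb, with no overlap between neighbours.

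Among the other SINE entries, RNA of 1 of 10 rose and none fell after Siwi knockdown (median log2 change -0.0505), and 1 rose and 1 fell after Mael knockdown (median -0.0101). The rise was in both cases Neet, another SBTE entry, from 1.56 ± 0.0615 RPKM to 6.49 ± 0.5999 with Siwi and 5.33 ± 0.769 with Mael knockdown (SD, n = 2), and the fall was Minichikuri, from 32.2 ± 1.59 to 21.2 ± 3.71 RPKM. In Siwi-bound small RNA 3 of 16 other SINE entries rose and 3 fell with Ago3 knockdown (median 0.13), and 1 rose and 6 fell with Mael knockdown (median -0.26). BmSE, listed under the tRNA superfamily, rose most of these in both, at 63.7 ± 3.81 RPM in controls, 340.0 ± 165 and 185 ± 71.1 RPM, and Amanoya fell in both, from 486 ± 36.2 to 255 ± 11.1 and 187 ± 15.5 RPM. Tenshi rose and Nagisa fell with Ago3 knockdown (log2 changes 0.81 and -1.55), and Sayama fell with Mael knockdown (-1.23). Between the knockdowns, SINE-1_BM RNA was higher and that of Rinne and Minichikuri lower after Mael than after Siwi knockdown (0.85, -0.69 and -0.53). In small RNA 2 of the 16 other SINE entries were higher and 10 lower after Mael than after Ago3 knockdown (median -0.43). Nagisa and Rinne were the higher ones, and Sayama and Yaocho had the largest falls (1.00, 0.95, -1.32 and -1.05).

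LINE entries, the class that supplies the enzymes for copying SINEs, had 17 of 78 higher and 2 lower in RNA after Siwi knockdown (median log2 change 0.23) and 3 higher and none lower after Mael knockdown (median 0.00161). In Siwi-bound small RNA 18 of 172 LINE entries rose and 89 fell with Ago3 knockdown (median -0.61), and 22 rose and 83 fell with Mael knockdown (median -0.51). The medians of all tested entries were 0.15 and -0.00817 in RNA and -0.28 and -0.44 in small RNA, in the same order. Bm1 and Bm1-450bp had small RNA changes of 1.29 and 1.23 and of 0.77 and 0.70. In the values as deposited, these lay on the other side of 0 from the small RNA medians of LINE entries and of all entries alike. With trimmed-mean scaling the medians of all entries were 0.0126 with Ago3 and 0.0721 with Mael knockdown. The contrast of sign with all entries thus depends on the scaling. Whether the family differs from the LINE class was not tested.

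Other entries followed the members over the 6 libraries of a table. These likenesses are Pearson correlations of log2(value + 1) with entries of a mean of at least 10; they rest on 3 groups of 2 libraries and are given as a description. In RNA, ChoBm1 was most like BmTE_RM1-504 (r = 0.99), BmTE_RM4-128 (0.98) and BmTE_RM1-57 (0.98), unclassified entries with their highest level after Siwi knockdown. Bm1modoki was most like the Gypsy element BmTE_RM6-2827 (0.97), BmTE_RM1-504 (0.96) and ChoBm1 itself (0.94). Bm1-450bp was most like BmTE_RM1-43 (0.98), BmTE_RM1-42 (0.97) and BmTE_RM4-159 (0.97), each raised about alike in both knockdowns. Bm1 had no close match in RNA, the nearest being BmTE_RM6-12824 (0.79), BmTE_RM1-295 (0.76) and BmTE_RM1-293 (0.69).

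In Siwi-bound small RNA, Bm1 and Bm1-450bp followed each other (r = 0.97) and shared BmTE_RM6-1027 as their nearest entry (0.99 for each), which had 24.8 RPM in controls, 98.7 after Ago3 knockdown and 52.4 after Mael knockdown. BmTE_RM4-159 (0.98) and the Gypsy element BmRT12 (0.98) came next for Bm1, and BmTE_RM5-555 (0.99) and BmTE_RM1-39 (0.99) for Bm1-450bp. Bm1modoki was most like the LINE BmTE_RM6-374 (0.99), Helitron-N1C_BM (0.96) and the LINE BmTE_RM4-337 (0.94). ChoBm1 was most like BmTE_RM6-3185 (0.99), BmTE_RM1-155 (0.98) and BmTE_RM6-8141 (0.96), all lowest after Mael knockdown, and its correlation with Bm1 was 0.0766. In RNA the correlation of ChoBm1 was 0.94 with Bm1modoki, 0.69 with Bm1-450bp and -0.73 with Bm1.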

How the data were processed

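The 4 entries and the lists (other SINE entries, LINE entries) were chosen with earlier results of these data known. Titles gave each library its group and replicate number, and the titles of the libraries called poly-A RNA here read totalRNA. The authors deposited poly-A RNA as RPKM and Siwi-bound small RNA as RPM, 1 table each. The tools named in the submitters' processing notes are cutadapt 3.1, Bowtie 1.3.0, STAR 2.7.9a, Trim Galore, SAMtools and bedtools. Their roles, the genome build, the handling of strand and of reads with several matches were not given in the sources used here, so reads shared by near-identical entries may be split, repeated or dropped, and the members are not independent.

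All RPM values (100%) were whole multiples of the smallest value of their library within 0.001 reads. Library totals and entry lengths were searched until RPKM values also gave whole reads at this tolerance, which succeeded for 978 of 978 entries not at 0, and both lengths stated in names (6926 and 7603) were recovered. The chi-square per degree of freedom between replicates, 3.36 to 43.9, exceeded counting noise.

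Values were tested as log2(value + 1) with limma 3.58.1 in R 4.3.3 (eBayes with a trend), two-sided, on the 490 RNA and 1004 small RNA entries averaging at least 1. All 6 libraries shared the spread, with Benjamini-Hochberg adjustment over all tested entries at 0.05. The fold changes given are ratios of group means. The procedure was also run on simulated data, but the outcome is not given here. Alternatives were a pseudocount of 0.1 or 10, no filter or a mean of at least 10, trimmed-mean scaling and edgeR 4.0.16 on the recovered reads (for RNA chosen after seeing the data), only the libraries compared, a replicate block, no trend and leaving out each library. Named were all members, in each comparison at most the 2 largest called rises and falls of other SINE entries, and the 3 entries most like each member.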

Additional observations from a re-analysis of the deposited data

How the results depend on the processing

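Of 309 recomputed changes of the 4 entries, 268 kept their direction and their side of the threshold, 25 lost and 8 gained the call, and 8 changed sign. The rises of ChoBm1 RNA and Bm1modoki RNA after Siwi knockdown and of Bm1 and Bm1-450bp small RNA after Ago3 and Mael knockdown held under every alternative run, except that Bm1modoki RNA is not tested at a mean of at least 10. The count of entries called after Siwi knockdown was 134 in RNA, 74 with no filter and 63 with a mean of at least 10, and leaving out 1 library gave 0 to 1 family falls. After Mael knockdown it was 54 in RNA, then 19 and 31 under these filters and 18 to 43 without 1 library (33, 30 and 18 without LucKD replicate 1, MaelKD replicate 1 and MaelKD replicate 2). The 1 family rise there became 0 with a pseudocount of 10, with no filter, with no trend and without any 1 library (range 0 to 0), and 2 with a mean of at least 10, with only the 4 libraries compared and with the replicate block. For Mael against Siwi knockdown the 100 calls became 30 and 42 under the filters, 57 with trimmed-mean scaling and 34 to 85 without 1 library (63, 61 and 34 without SiwiKD replicate 1, MaelKD replicate 1 and MaelKD replicate 2). The 2 family falls became 1 with no filter, with a mean of at least 10 and with trimmed-mean scaling, and 1 to 2 without 1 library, and the replicate block added 1 family rise (Bm1) to 0. In small RNA the 1 family fall after Mael knockdown became 0 with trimmed-mean scaling and with no trend, and the 4 falls against Ago3 knockdown became 1 and 2. With a stricter filter the lower number of tested entries is part of the change; otherwise the cause was not tested.

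Changes of sign were those of Bm1 RNA after Mael knockdown without LucKD replicate 2 (-0.19; range without 1 library -0.19 to 0.32), Bm1-450bp RNA between Mael and Siwi knockdown without SiwiKD replicate 2 (-0.0749) or MaelKD replicate 1 (-0.0031), with a range of -0.0749 to 0.0860 without 1 library, ChoBm1 small RNA after Ago3 knockdown without Ago3KD replicate 1 (-0.0394; range -0.0394 to 0.29), Bm1modoki small RNA after Mael knockdown without LucKD replicate 2 (-0.16), without MaelKD replicate 2 (-0.0119; range -0.16 to 0.18) and with edgeR (-0.0171), and ChoBm1 small RNA after Mael knockdown with trimmed-mean scaling (0.17). Trimmed-mean scaling moved the split of calls in RNA to 90 higher and 43 lower after Siwi knockdown (119 and 15 as deposited), with the median change of all entries going from 0.15 to -0.0137, and to 12 and 45 between Mael and Siwi knockdown (8 and 92, medians 0.0308 and -0.14), and in small RNA to 263 and 201 between Mael and Ago3 knockdown (208 and 318). edgeR called 139, 61 and 111 entries in the RNA comparisons and 606, 574 and 512 in small RNA. Deviations of same-numbered libraries correlated at -0.0369 to 0.179. The labels do not say whether replicate numbers pair the libraries, and these correlations cannot settle it. With the replicate block 22 of the 24 family changes stayed on their side of the threshold, none of the 16 calls was lost, and 2 were gained (Bm1-450bp RNA after Mael knockdown and Bm1 RNA between Mael and Siwi knockdown). Depth limits Bm1 small RNA most, with 81 reads in LucKD replicate 2.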
